A study of Rattus norvegicus with 9 samples.

Results

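The rodent miR-322, miR-503 and miR-351 genes lie side by side on the X chromosome, and the mature miRNAs cut from their hairpins were followed in normal and transplanted rat corneas. Members were chosen by name from the deposited table of small RNA sequencing, where they appear as rno-miR-322-5p, rno-miR-322-3p, rno-miR-503-5p, rno-miR-503-3p and rno-miR-351-5p, and all 5 were among its 765 mature miRNAs. They were also selected from measured values, since it was seen in these data that they part between allografts and isografts. Levels in the graft groups and every difference that involves only 1 of them are therefore given as descriptions, without a test. The samples were 3 libraries of allograft cornea, 3 of isograft cornea and 3 of normal cornea, all labelled as Wistar rats of 6 weeks. An isograft by name comes from a genetically matched donor and an allograft from a differing donor. The labels give neither the donor strain nor the time after surgery, and the allografts carry the same strain label as the other samples. Each library carries 12, 34 or 56 in its title and is called by it. Whether libraries of a group are different rats is not stated, and the p-values below reflect the scatter among these libraries, possibly technical in part.

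A miRNA hairpin is cut to a short duplex, and either strand of the duplex, named 5p or 3p for its arm of the hairpin, can be loaded into an Argonaute protein, while the other is usually degraded. The loaded strand recognises mRNAs mainly through its seed, the bases from the second to the eighth. miR-322-5p, the rodent counterpart of human miR-424-5p, and miR-503-5p belong to the wider miR-15/16 group, which is known for restraining the cell cycle through targets such as cyclins and Cdc25a. miR-351-5p is a rodent miRNA with the seed of miR-125, the mammalian relative of worm lin-4. The other hairpins of the cluster are miR-542, miR-450b and miR-450a.

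The mature sequences of the members are shown because no 2 of the 5 have the same seed. They are given from RefSeq with positions on the assembly GRCr8, where all 5 were found, and the capitals mark the seed, bases 2 to 8. miR-16-5p and miR-125b-5p, encoded on other chromosomes, are shown because each shares the seed of a member.
miR-322-5p: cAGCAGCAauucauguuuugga
miR-16-5p: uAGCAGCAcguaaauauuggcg
miR-503-5p: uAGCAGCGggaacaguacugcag
miR-351-5p: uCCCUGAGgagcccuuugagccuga
miR-125b-5p: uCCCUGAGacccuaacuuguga
miR-322-3p: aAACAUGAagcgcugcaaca
miR-503-3p: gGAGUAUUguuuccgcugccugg
Among the miRNAs with a RefSeq sequence, the seed of miR-322-5p was shared with miR-15b-5p, miR-16-5p, miR-195-5p and miR-497-5p, and that of miR-351-5p with miR-125a-5p and miR-125b-5p. miR-15a-5p, of the same miR-15/16 group, had no match there. The seed of miR-503-5p differs from that of miR-322-5p in its last base and was found in no other miRNA among the 690 of the table that had a RefSeq sequence. The seeds of both 3p arms were likewise found in no other.

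The hairpins of miR-322 and miR-503 are shown because their arms parted in the grafts, and the capitals mark the mature 5p and 3p arms.
miR-322 hairpin: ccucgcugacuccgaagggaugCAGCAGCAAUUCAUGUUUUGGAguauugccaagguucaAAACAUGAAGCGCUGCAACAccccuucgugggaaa
miR-503 hairpin: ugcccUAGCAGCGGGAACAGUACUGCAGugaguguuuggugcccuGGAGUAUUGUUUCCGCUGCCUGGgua
On GRCr8 the miR-322 hairpin lies at chrX:137726147-137726241, miR-503 at chrX:137725856-137725926 and miR-351 at chrX:137725116-137725196, all on the minus strand. In the direction of transcription miR-322 comes first, miR-503 follows after 220 bases and miR-351 after another 659, and miR-542, miR-450b and miR-450a follow. The 6 hairpins span 5309 bases. The lncRNA LOC102550366 overlaps the hairpins of miR-322, miR-503 and miR-351, and the nearest protein-coding gene is Plac1. These positions belong to GRCr8 and not to rn6, the build named for the deposited values, which carry no coordinates.

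Values are RPM, reads scaled to a common library size, with library totals that ran from 11001459 to 12153889 reads and also counted reads outside the listed miRNAs. The listed miRNAs held between 26.4% and 65.6% of that total, so RPM values move with the share of other reads. Their share was 33.9%, 26.4% and 46.3% in allografts, 36.8%, 54.5% and 48.8% in isografts and 46.6%, 65.6% and 60.7% in normal corneas. Every allograft lay below every normal cornea in this share, so the scaling runs with that comparison. The members were backed by between 41 and 2498 reads in each library. Isograft 12 stood apart from isografts 34 and 56 in several members, as given below, and its share of listed miRNAs was the lowest of the isografts. Ligation and amplification favour some small RNAs over others, so levels of different miRNAs in the same library are compared here only as measured.

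miR-322-5p was low in normal corneas and several times higher in grafts of both kinds. It stood at 36.3, 33.7 and 72.3 RPM in allografts 12, 34 and 56, at 17.2, 63.2 and 66.1 RPM in isografts 12, 34 and 56, and at 7.45, 7.27 and 8.72 RPM in the normal corneas. All 6 grafts were above all 3 normal corneas, the allografts and isografts overlapped, and isograft 12 was the lowest graft. The group means were 47.4 ± 21.6 RPM in allografts, 48.8 ± 27.4 RPM in isografts and 7.81 ± 0.793 RPM in normal corneas (SD, n = 3 each). miR-322-3p, the other arm, was the more abundant arm in every library and did not follow the same order. It was at 90.8, 70.5 and 121 RPM in allografts, 106, 227 and 198 RPM in isografts and 60.5, 56.3 and 70.0 RPM in normal corneas. The lowest allograft was barely above the highest normal cornea, and the isografts 34 and 56 were above every allograft, while isograft 12 was within the allograft range.

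miR-503-5p was highest on average in allografts. Its values were 18.9, 23.4 and 43.0 RPM in allografts, 4.20, 24.0 and 25.7 RPM in isografts and 5.72, 3.72 and 5.81 RPM in normal corneas. The allografts did not overlap the normal corneas, while isograft 12 lay within the normal range, and the isografts 34 and 56 within the allograft range. miR-503-3p, from the same hairpin, was highest in isografts. It stood at 8.36, 7.27 and 9.18 RPM in allografts, 13.6, 34.9 and 21.8 RPM in isografts and 6.90, 6.09 and 11.7 RPM in normal corneas. Every isograft was above every allograft and every normal cornea, and the allografts lay inside the normal range.

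miR-351-5p showed the widest gap between the grafts among the members. It was at 32.5, 32.7 and 46.1 RPM in allografts, 105, 224 and 103 RPM in isografts and 24.4, 14.99 and 29.4 RPM in normal corneas. The groups did not overlap, with isografts at the top and allografts just above normal corneas. The means were 37.1 ± 7.76 RPM in allografts, 144 ± 69.6 RPM in isografts and 22.9 ± 7.33 RPM in normal corneas (SD, n = 3 each), so the allograft mean was 0.258 times that of the isografts.

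**Figure D1:**
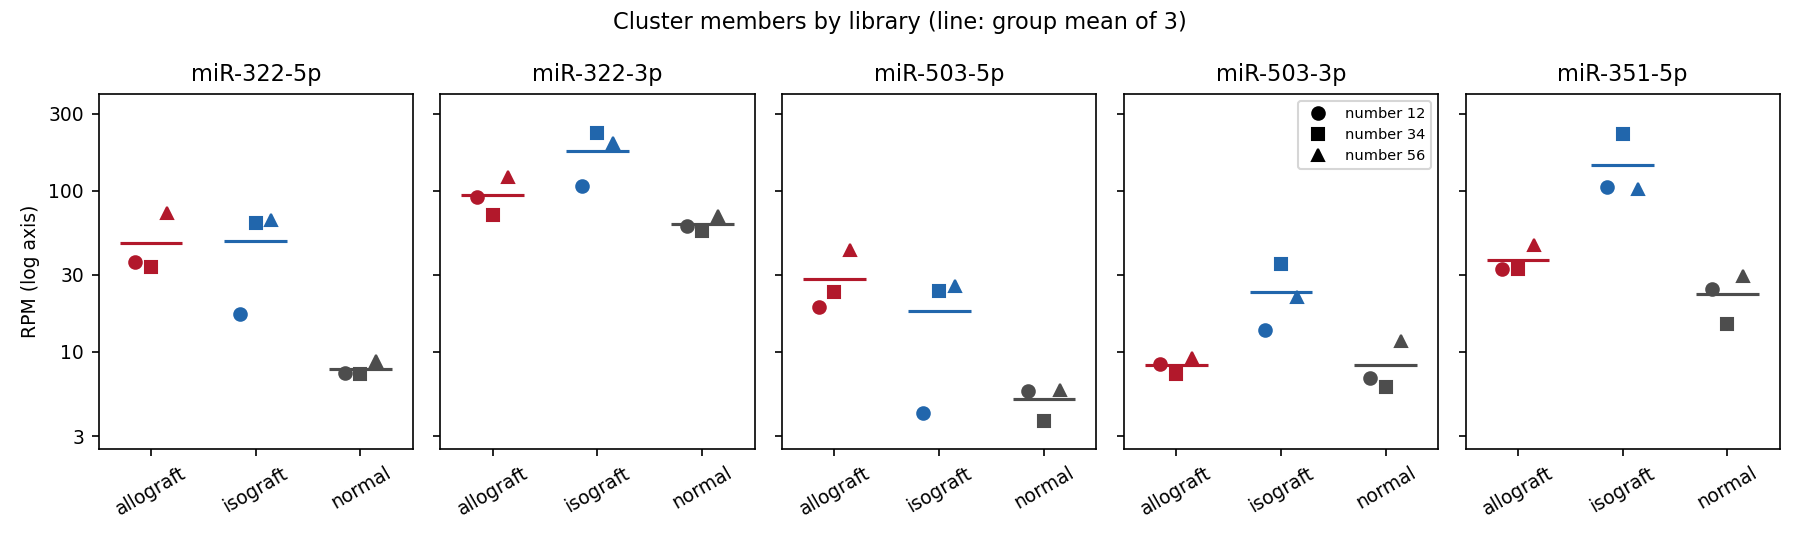
RPM (log axis) of the 5 members in each library, with allografts, isografts and normal corneas from left to right, the symbol for the number in the title and a line at the mean of 3 libraries. miR-351-5p and miR-503-3p are higher in all 3 isografts than in all 3 allografts, whereas miR-322-5p and miR-503-5p overlap between the grafts.

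Set side by side in a moderated linear model of log2(RPM + 1) over all 9 libraries (limma), the members fell into different orders. The allograft minus isograft difference in log2(RPM + 1) was -1.85 (SE 0.41) for miR-351-5p, -1.31 (SE 0.39) for miR-503-3p, -0.87 (SE 0.39) for miR-322-3p, 0.09 (SE 0.45) for miR-322-5p and 0.87 (SE 0.48) for miR-503-5p. The sign for miR-322-5p turned, to -0.05, when RPM was computed without the epithelial miR-184. Scaled to the reads of the listed miRNAs, its difference was 0.51. These differences helped choose the members and are no test. Over the 281 miRNAs kept for testing, which reached 5 RPM in 3 or more libraries, the median difference was -0.29. Without isograft 12 the allograft minus isograft difference was -0.52 for miR-322-5p and 0.10 for miR-503-5p, and without allograft 56 it was -0.25 and 0.54, so the values of both 5p arms move with single libraries. The median of all miRNAs kept moved too, to -0.57 without isograft 12 and to -0.53 without allograft 56. Among the members 2 were lower in every allograft than in every isograft, and 22.4% of the miRNAs kept were so.

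Against normal corneas the same fit gave allograft minus normal differences of 2.38 (SE 0.45) for miR-322-5p, 2.21 (SE 0.48) for miR-503-5p, 0.70 (SE 0.41) for miR-351-5p, 0.56 (SE 0.39) for miR-322-3p and 0.05 (SE 0.39) for miR-503-3p. The isograft minus normal differences were 2.28 (SE 0.45) for miR-322-5p, 1.33 (SE 0.48) for miR-503-5p, 2.55 (SE 0.41) for miR-351-5p, 1.43 (SE 0.39) for miR-322-3p and 1.36 (SE 0.39) for miR-503-3p. Both sets use the same 3 normal corneas. Allografts lay wholly above normal corneas in 4 of the 5 members, all but miR-503-3p, and did so in 29.9% of the miRNAs kept. Isografts lay wholly above normal corneas in 4 of 5, all but miR-503-5p, and in 22.4% of the miRNAs kept. Nothing is read from these counts, since the graft levels chose the members. In isografts the difference of miR-503-5p was 2.11 without isograft 12, while those of miR-322-5p and miR-351-5p were 2.90 and 2.73, so the order of the members depends on that library. The allograft minus normal difference of miR-351-5p was 0.44 to 0.90, and that of miR-322-3p 0.36 to 0.75, with 1 library left out, and without miR-184 they were 0.29 and 0.13. That of miR-503-3p turned to -0.34 without miR-184, and was also below 0 without allograft 56 (-0.022), normal 12 (-0.040) or normal 34 (-0.12). Scaled to the reads of the listed miRNAs, the allograft minus normal differences were 1.42 for miR-351-5p, 1.28 for miR-322-3p and 0.73 for miR-503-3p. The median over all miRNAs tested was -0.14 in the main fit, -0.56 without miR-184 and 0.55 scaled to the listed miRNA reads.

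The comparison of all grafts with normal corneas does not use the difference between the grafts, and was the test used for the members. It still draws on the graft libraries whose values helped choose them, so its p-values do not come from independent data. The mean of both graft groups was set against the normal corneas in the same fit, with Benjamini-Hochberg adjustment over the 281 miRNAs. Of the 5 members 4 rose in grafts and none fell, with a median difference of 1.63 in log2(RPM + 1), against a median of -0.04 over all miRNAs tested. Of all miRNAs tested 21.4% were called higher. miR-322-5p rose by 2.33 (SE 0.39, limma adjusted p = 1.58e-05), miR-503-5p by 1.77 (SE 0.42, adjusted p = 0.00102) and miR-351-5p by 1.63 (SE 0.35, adjusted p = 0.000457). All grafts were above all normal corneas for miR-322-5p, miR-322-3p and miR-351-5p, as were 16.7% of the miRNAs tested. miR-503-5p was above every normal cornea in 5 of 6 grafts, isograft 12 being the exception. It was at 3.72 RPM in normal 34, so it met the filter of 5 RPM only with graft libraries counted. Without the filter on low values its limma adjusted p was 0.0144. These 3 rises passed the threshold in every alternative setting in which the miRNA was tested. With RPM taken without miR-184 they were 2.02, 1.48 and 1.28, and scaled to the reads of the listed miRNAs they were 2.89, 2.33 and 2.15.

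The 3p arms were closer to the threshold. miR-322-3p rose by 0.99 (SE 0.34, limma adjusted p = 0.0197). It was not past the threshold with RPM computed without miR-184 (difference 0.64, adjusted p = 0.157, the highest of 21 alternatives, the lowest being 2.89e-10). Nor was it past it without isograft 56 (adjusted p = 0.0502), normal 12 (adjusted p = 0.0752), normal 34 (adjusted p = 0.0964) or normal 56 (adjusted p = 0.0595). miR-503-3p had a difference of 0.70 (SE 0.34, adjusted p = 0.111) and did not pass. It passed without isograft 12 (difference 0.86, adjusted p = 0.0100) and in 4 other settings, given with the alternatives, and over 20 alternatives its adjusted p lay between 0.00254 and 0.411. For miR-351-5p and miR-503-3p the mean over both grafts joins groups that did not overlap, so it describes neither group's level.

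**Figure D2:**
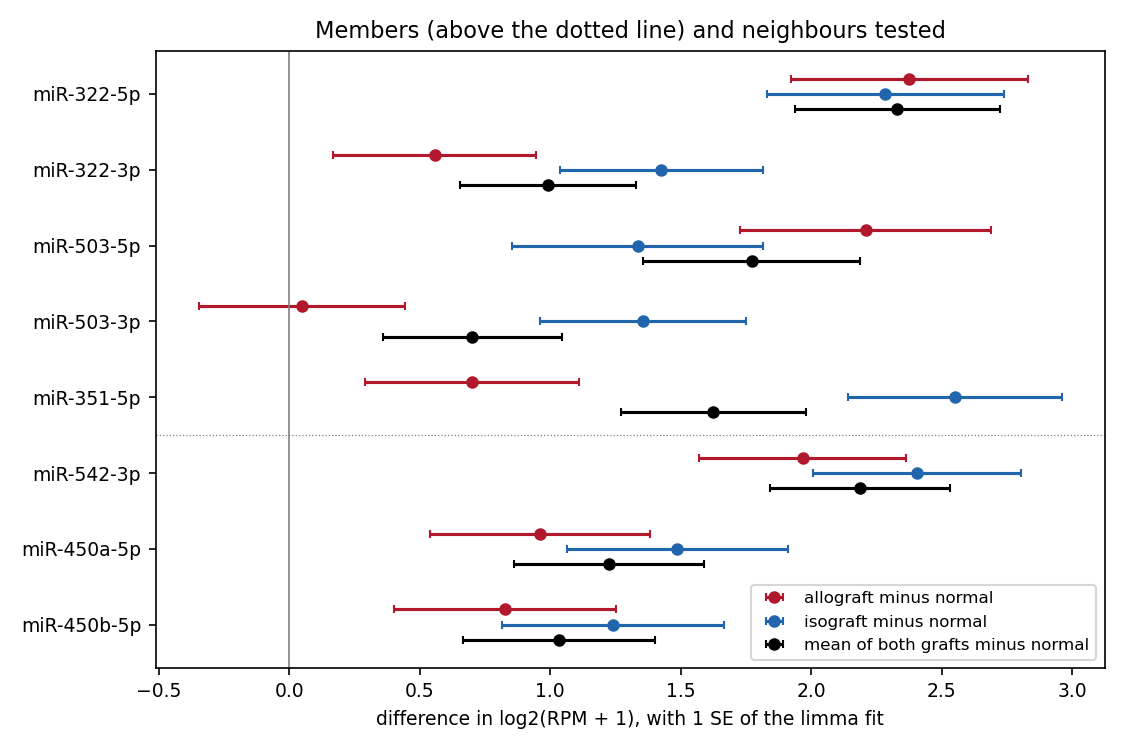
Differences in log2(RPM + 1) with 1 SE of the limma fit for the 5 members and, under the dotted line, the 3 neighbours tested, for allografts minus normal corneas, isografts minus normal corneas and the mean of both grafts minus normal corneas. miR-322-5p and miR-542-3p stand near 2 or above in all 3 contrasts, while miR-351-5p is at 2.55 in isografts and at 0.70 in allografts.

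The ratio of both arms of a hairpin within a library does not change with the scaling of that library. For miR-503 the arm that dominated was not the same in all groups. The 5p to 3p ratio was 2.26, 3.21 and 4.68 in allografts 12, 34 and 56, 0.309, 0.687 and 1.18 in isografts and 0.829, 0.612 and 0.496 in normal corneas. The 5p arm was thus the more abundant arm in all 3 allografts and in isograft 56, and the 3p arm in the other isografts and in all normal corneas. Allografts lay above both other groups, which overlapped.

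For miR-322 the ratio of 5p to 3p was 0.399, 0.478 and 0.600 in allografts, 0.162, 0.278 and 0.334 in isografts and 0.123, 0.129 and 0.125 in normal corneas. The 3 groups did not overlap, in the order allograft, isograft, normal. The 3p arm dominated throughout. The ratio averaged 0.492 ± 0.101 in allografts, 0.258 ± 0.0876 in isografts and 0.126 ± 0.00309 in normal corneas (SD, n = 3 each).

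**Figure D3:**
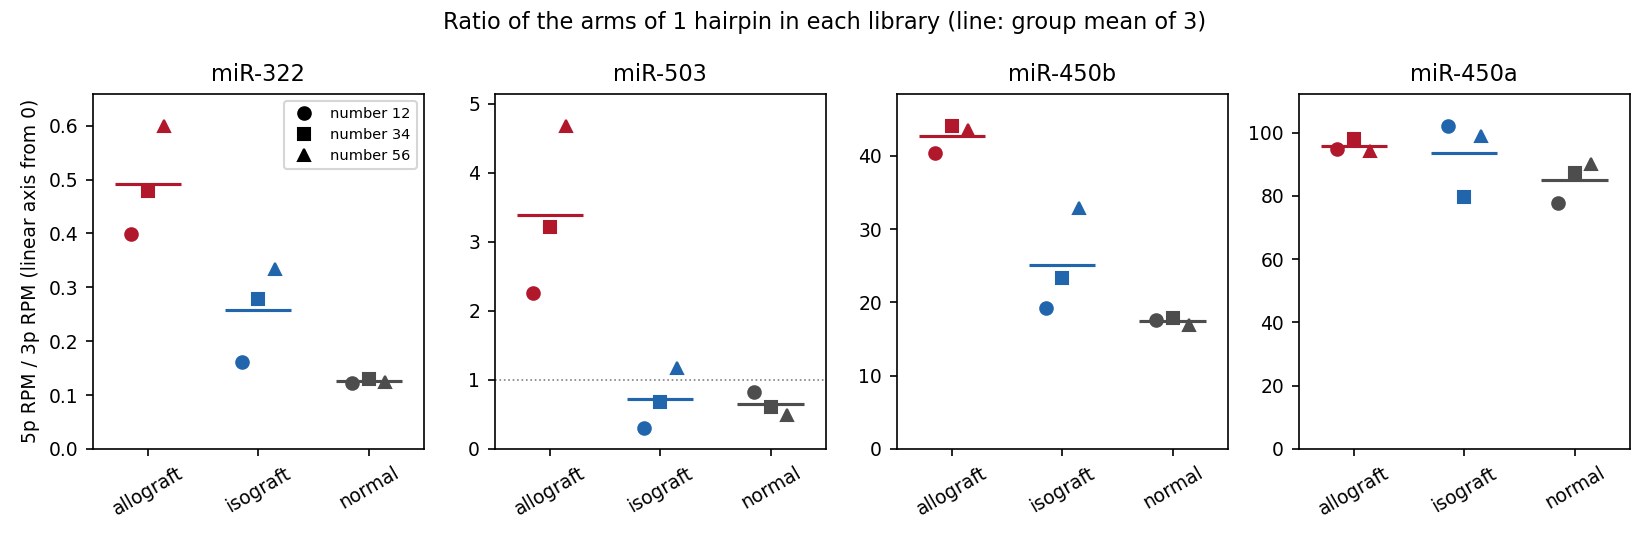
Ratio of 5p RPM to 3p RPM (linear axis from 0) for 4 hairpins of the cluster in each library, with a line at the group mean of 3 and, for miR-503, a dotted line at a ratio of 1. All 3 allografts are above all isografts and normal corneas for miR-322, miR-503 and miR-450b. For miR-450a the allografts are above the normal corneas, and the isografts overlap both.

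Among the 62 hairpins with both arms kept, the log2 of the 5p to 3p ratio, taken with 1 RPM added to each arm, was higher in allografts than in isografts by a median of 0.18. It was higher by 2.18 for miR-503, the highest of the 62, and by 0.96 for miR-322, place 4. For allografts minus normal corneas the values were 2.16 for miR-503 and 1.82 for miR-322, places 1 and 2, with a median of 0.18. The allografts were above all isografts in 10 of the 62 hairpins, and above all normal corneas in 20. Since the levels of these arms in the grafts helped choose the members, the places are a description. In both graft groups the ratios of miR-322 and miR-503 rose from library 12 to 34 to 56. Hairpins outside the cluster did so too, such as miR-340 (28.6, 29.8 and 43.1 in allografts, 12.5, 17.8 and 22.9 in isografts) and miR-106b. For miR-223 the ratio fell in that order in both (0.162, 0.110 and 0.0908 in allografts, 0.159, 0.122 and 0.0782 in isografts). This spread within the graft groups is therefore not particular to the cluster, and its cause was not tested.

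**Figure D4:**
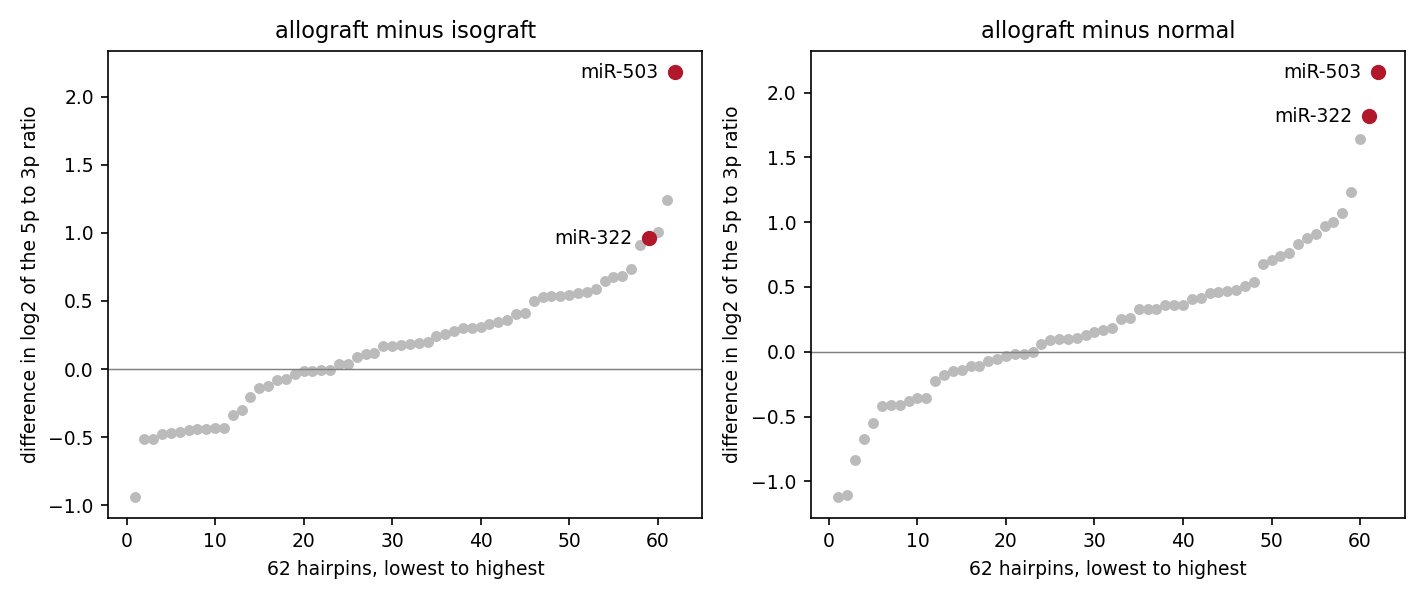
Difference in the log2 of the 5p to 3p ratio for 62 hairpins, sorted from lowest to highest, for allografts minus isografts and allografts minus normal corneas, with miR-322 and miR-503 in red. miR-503 is the highest point in both panels, at 2.18 and 2.16.

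Ratios between members are also free of library scaling. miR-351-5p relative to miR-503-5p was 1.72, 1.40 and 1.07 in allografts, 25.0, 9.35 and 3.996 in isografts and 4.27, 4.02 and 5.06 in normal corneas. The allografts were below every other library, and the isografts and normal corneas overlapped. miR-351-5p relative to miR-322-5p was 0.897, 0.970 and 0.637 in allografts, 6.11, 3.55 and 1.56 in isografts and 3.28, 2.06 and 3.38 in normal corneas. Here too the allografts were lowest and the other groups overlapped. miR-503-5p relative to miR-322-5p was 0.521, 0.693 and 0.594 in allografts, 0.244, 0.380 and 0.389 in isografts and 0.768, 0.512 and 0.667 in normal corneas. The isografts were lowest for this pair.

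The other miRNAs of the cluster were no members and could be tested in every comparison. Of the 7 listed, only 3 were abundant enough, miR-542-3p, miR-450a-5p and miR-450b-5p. All 3 rose in grafts against normal corneas, where 21.4% of all miRNAs tested were called higher. miR-542-3p, cut from the hairpin after miR-351, was at 119, 86.6 and 154 RPM in allografts, 94.4, 204 and 206 RPM in isografts and 31.9, 25.1 and 30.9 RPM in normal corneas. The grafts of both kinds were above all normal corneas, and the graft groups overlapped. Its grafts minus normal difference was 2.19 (SE 0.34, limma adjusted p = 5.76e-06), and it rose in allografts by 1.97 (SE 0.40, adjusted p = 0.000177) and in isografts by 2.40 (SE 0.40, adjusted p = 2.25e-05), each against normal corneas. The background shares called higher were 23.1% for allografts and 16.7% for isografts. miR-450a-5p rose in grafts by 1.22 (SE 0.37, adjusted p = 0.00861) and miR-450b-5p by 1.03 (SE 0.37, adjusted p = 0.0265). Neither passed between allografts and normal corneas, at 0.96 (SE 0.42, adjusted p = 0.0608) and 0.83 (SE 0.43, adjusted p = 0.109), and both passed in isografts, at 1.49 (SE 0.42, adjusted p = 0.00965) and 1.24 (SE 0.43, adjusted p = 0.0345). These calls also changed with the libraries and scaling used: without isograft 12 both were called in allografts (adjusted p = 0.00554 and 0.0202), and with RPM without miR-184 miR-450b-5p was not called in isografts (adjusted p = 0.0991). The mature miR-450a-5p and miR-450b-5p share their first 20 bases, so the split of reads between them is uncertain and their rises may not be independent.

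Between the grafts none of these 3 neighbours passed the threshold in limma, where 34.5% of the miRNAs tested were called in either direction. The allograft minus isograft differences were -0.44 (SE 0.40, limma adjusted p = 0.409) for miR-542-3p, -0.53 (SE 0.42, adjusted p = 0.345) for miR-450a-5p and -0.41 (SE 0.43, adjusted p = 0.460) for miR-450b-5p. Isograft 12 decided this for miR-450a-5p and miR-450b-5p, which without it had differences of -1.06 (adjusted p = 0.00773, the lowest with 1 library left out, the highest being 0.753) and -0.93 (adjusted p = 0.0218, the lowest, the highest being 0.843). In the fit without isograft 12, 114 of 281 miRNAs were called lower between the grafts, against 59 with all libraries. The median difference was then -0.57, against -0.29. The rise of miR-450a-5p in grafts was not past the threshold without normal 34 (adjusted p = 0.0583) or normal 56 (adjusted p = 0.0549). That of miR-450b-5p was not past it in 6 of 9 such fits, those without allograft 56, isograft 34, isograft 56 or any of the normal corneas (adjusted p up to 0.111), nor with RPM without miR-184 (difference 0.68, adjusted p = 0.130, the highest of 21 alternatives, the lowest being 3.83e-07) or without the filter on low values (adjusted p = 0.0588).

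The 4 low neighbours were miR-351-3p, miR-542-5p, miR-450a-3p and miR-450b-3p. miR-351-3p, the rare arm of miR-351, was at 0.636, 0.454 and 0.727 RPM in allografts, 1.07, 1.36 and 1.09 RPM in isografts and 0, 0 and 0.363 RPM in normal corneas, the same order of groups as miR-351-5p. These rest on 7, 5 and 8 reads in allografts, 13, 15 and 12 in isografts and 0, 0 and 4 in normal corneas. miR-450b-3p was at 2.64, 1.999 and 4.45 RPM in allografts, 4.11, 10.3 and 6.91 RPM in isografts and 4.09, 3.36 and 4.36 RPM in normal corneas. Its values rest on 29, 22 and 49 reads in allografts, 50, 113 and 76 in isografts and 45, 37 and 48 in normal corneas. The uncertain split of reads between miR-450a-5p and miR-450b-5p also bears on the arm ratios of both hairpins. The arm ratio of miR-450b, 5p over 3p, was 40.4, 44.1 and 43.5 in allografts, 19.2, 23.4 and 32.9 in isografts and 17.6, 17.9 and 16.9 in normal corneas, in the same order of groups as for miR-322. In log2 it was higher by 0.89 in grafts than in normal corneas (exact two-sided permutation test, p = 0.0238, the smallest that 6 against 3 can give; adjusted p = 0.0952 over 4 tests). Between allografts and isografts it differed by 0.80 (exact permutation p = 0.1, the smallest that 3 against 3 can give; adjusted p = 0.190). For miR-450a the ratio ran from 94.2 to 97.9 in allografts, from 79.7 to 102 in isografts and from 77.6 to 90.2 in normal corneas, and neither comparison passed (log2 difference 0.15, exact permutation p = 0.143, for grafts against normal corneas; 0.04, exact permutation p = 1, for allografts against isografts).

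miRNAs of the seed groups that the members belong to come from other loci and were tested in the same fit. Of the 5 miR-15/16 miRNAs, miR-15a-5p rose in grafts against normal corneas (0.92, SE 0.36, limma adjusted p = 0.0431), a call lost in 6 of 9 fits with 1 library left out, those without allograft 56, isograft 34, isograft 56 or any normal cornea (adjusted p up to 0.154). It was also lost with RPM without miR-184 (difference 0.61, adjusted p = 0.167, the highest of 20 alternatives, the lowest being 8.85e-05) and without the filter on low values (adjusted p = 0.109). The other 4 did not pass. In allografts against isografts 3 of 5 rose, where 13.5% of all miRNAs tested were called higher: miR-15a-5p by 1.41 (SE 0.41, limma adjusted p = 0.0104), miR-15b-5p by 1.09 (SE 0.41, adjusted p = 0.0404) and miR-16-5p by 1.06 (SE 0.40, adjusted p = 0.0422). miR-195-5p stood at -0.58 (SE 0.44) and miR-497-5p at -0.19 (SE 0.50), neither past the threshold, though without isograft 12 both were called lower (adjusted p = 0.00402 and 0.0254, the lowest with 1 library left out, the highest being 0.706 and 0.977). In the fit without isograft 12, 114 of the 281 miRNAs tested were called lower, against 59 with all libraries. Without 1 library the calls often failed, with that of miR-15a-5p lost without allograft 56 (adjusted p = 0.0563), that of miR-15b-5p lost in 7 of 9 fits with 1 library left out, all but those without isograft 34 or isograft 56 (adjusted p up to 0.144), and that of miR-16-5p lost in 6 of 9, those without allograft 34, allograft 56, isograft 12 or any normal cornea (adjusted p up to 0.164). The calls of miR-15b-5p and miR-16-5p were also lost with RPM without miR-184 (adjusted p = 0.0751 and 0.0682), without the filter on low values (adjusted p = 0.0683 and 0.0924) and with a filter at 50 RPM (adjusted p = 0.0565 and 0.0633). miR-322-5p made up 4.21%, 4.15% and 4.22% of the summed RPM of the miRNAs found with its seed, miR-15a-5p not counted, in allografts, 5.65%, 7.27% and 6.74% in isografts and 1.26%, 1.04% and 1.38% in normal corneas. The groups did not overlap in this share, which was led by miR-16-5p in every group.

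miR-125a-5p and miR-125b-5p, which carry the seed of miR-351-5p, fell in allografts against isografts, with differences of -1.53 (SE 0.37, limma adjusted p = 0.00233) and -1.04 (SE 0.37, adjusted p = 0.0295), where 21.0% of all miRNAs tested were called lower. The call of miR-125b-5p was lost in 5 of 9 fits with 1 library left out, those without allograft 12, allograft 34, isograft 34, isograft 56 or normal 56 (adjusted p up to 0.173), without the filter on low values (adjusted p = 0.0716) and with a filter at 50 RPM (adjusted p = 0.0531). In allografts against normal corneas both fell, miR-125a-5p by 1.61 (SE 0.37, adjusted p = 0.000692) and miR-125b-5p by 1.32 (SE 0.37, adjusted p = 0.00408), where 24.2% of all miRNAs were called lower. In isografts against normal corneas neither passed in limma. For all grafts against normal corneas, where 15.7% were called lower, miR-125a-5p had a difference of -0.84 (SE 0.32, adjusted p = 0.0372) and miR-125b-5p of -0.80 (SE 0.32, adjusted p = 0.0510). The call of miR-125a-5p was lost in 6 of 9 fits with 1 library left out, those without allograft 12, allograft 34, isograft 56 or any normal cornea (adjusted p up to 0.216), without the filter (adjusted p = 0.0625) and scaled to the listed miRNA reads (difference -0.33, adjusted p = 0.104), and that of miR-125b-5p was gained in several settings. The difference between these miRNAs and miR-351-5p was not tested. miR-351-5p held 1.66%, 1.96% and 1.26% of the summed RPM of its seed in allografts, 3.30%, 2.87% and 1.87% in isografts and 0.471%, 0.251% and 0.446% in normal corneas. Its share was higher in every graft than in every normal cornea, while miR-125b-5p supplied most of the total throughout.

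**Figure D5:**
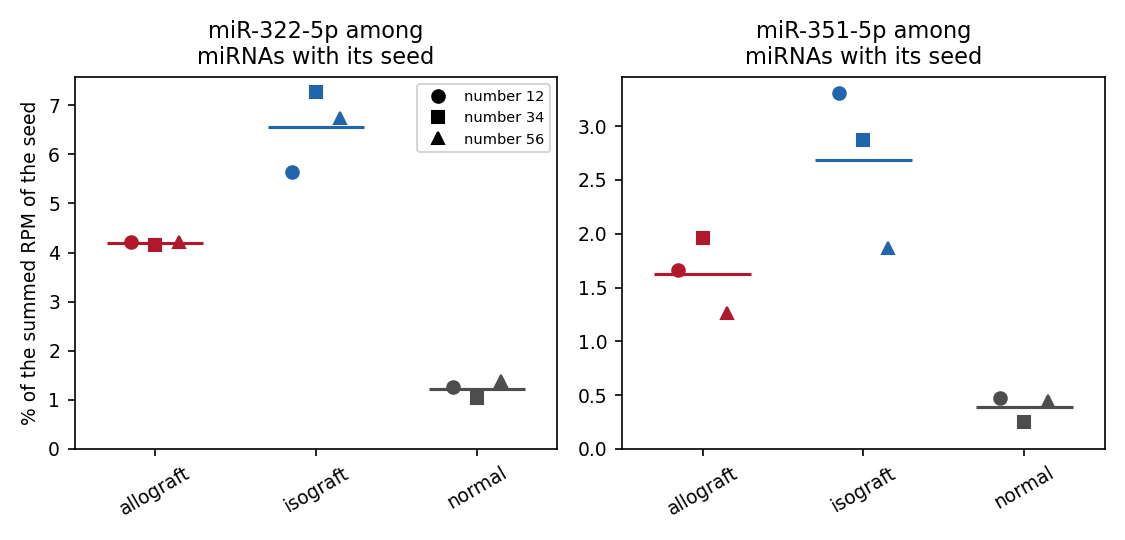
Share of miR-322-5p and of miR-351-5p in the summed RPM of the miRNAs found with the same seed, which leaves out miR-15a-5p (linear axis from 0, in %), by library, with a line at the group mean of 3. Normal corneas are lowest in both panels, at 1.04% to 1.38% for miR-322-5p and 0.251% to 0.471% for miR-351-5p.

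Markers of other cell types moved with the groups, and in these bulk samples fewer cells of a type and less RNA per cell cannot be told apart. The summed RPM of 5 leukocyte miRNAs was 2293 to 3997 in allografts, 156 to 327 in isografts and 46.0 to 56.7 in normal corneas. All 5 were called higher in allografts than in isografts, as were 13.5% of all miRNAs tested. The summed RPM of 5 miRNAs of stroma and smooth muscle was 10249 to 20138 in allografts, 15300 to 33580 in isografts and 8070 to 9911 in normal corneas. Of these 5, 2 were called lower in allografts than in isografts, as were 21.0% of all miRNAs tested. In allografts against normal corneas 3 of the 5 were called higher, as were 23.1% of all miRNAs tested. Not called there were miR-199a-5p (0.26, limma adjusted p = 0.599) and miR-199a-3p (-0.20, adjusted p = 0.683), so the sum does not describe each miRNA. Both arms of the endothelial miR-126a together were at 2955 to 4874 RPM in allografts, 2095 to 6150 RPM in isografts and 346 to 857 RPM in normal corneas. The summed RPM of 5 epithelial miRNAs, miR-184 among them, was 36375 to 89200 in allografts, 157828 to 191217 in isografts and 268447 to 416861 in normal corneas. Here too 2 of the 5 were called lower in allografts than in isografts. All 5 were called lower in grafts than in normal corneas, as were 15.7% of all miRNAs tested. No marker of these 4 lists was at 0 in any library. Red blood cell miRNAs summed to 18.5 to 1068 RPM in allografts, 14.0 to 181 RPM in isografts and 82.4 to 343 RPM in normal corneas, the highest value being allograft 34, and miR-144-3p and miR-144-5p were at 0 in some libraries. The part of any of these cell types in the levels of the members was not tested.

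By their profile over the 9 libraries in log2(RPM + 1), the miRNAs most like miR-322-5p were miR-34b-3p, miR-592 and miR-34c-5p, with Pearson's r of 0.97 for each. Those most like miR-503-5p were miR-532-3p, miR-350 and miR-484, with r of 0.95, 0.95 and 0.94. Those most like miR-351-5p were miR-224-5p, miR-455-3p and miR-503-3p, with r of 0.95, 0.95 and 0.93. Within the cluster, r was 0.93 between miR-322-5p and miR-503-5p, and 0.33 between both arms of miR-503. All these values rest on the same 9 libraries in 3 groups, which share their scaling, and are descriptions only.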

How the data were processed

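The deposited table holds RPM values that the authors computed for 765 mature miRNAs in 9 columns, each matched to 1 library by its title. The submitters' processing notes name bcl2fastq, BWA and rn6. Versions, trimming, annotation and how reads matching more than 1 miRNA were counted are not given. Per the labels, libraries were made with the Illumina TruSeq small RNA kit. In each library 100% of the values were whole multiples of 1 read within 0.1 read, which gave reads and totals.

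A miRNA was kept where 3 or more libraries reached 5 RPM (281 miRNAs). log2(RPM + 1) was fitted with limma 3.58.1 (R 4.3.3, mean-variance trend, 6 residual degrees of freedom, no covariate), with Benjamini-Hochberg adjustment and a threshold of 0.05. Such differences understate the change of low miRNAs. The fit was tested on simulated data with scatter drawn separately for each miRNA and library. These data held no shift shared by the miRNAs of a library, so they cannot show how the fit behaves under such shifts. Named were the members, all miRNAs of the fixed lists and, for each 5p member, the 3 kept miRNAs with the highest correlation. Members and lists were chosen with earlier results of these data known. Recovered reads were also tested with edgeR 4.0.16 and DESeq2 1.42.0.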

Additional observations from a re-analysis of the deposited data

How the results depend on the processing

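In all, 21 alternatives were run. For grafts against normal corneas limma called 104 miRNAs, 60 higher and 44 lower. The count was 166 with scaling by the median of ratios (87 higher, 79 lower), 166 scaled to the listed miRNA reads (136 higher, 30 lower), 167 with edgeR, 172 with DESeq2, 59 with a filter at 50 RPM, and 66 to 130 with 1 library left out. Leaving miR-184 out of the RPM total gave 131, of which 52 were higher and 79 lower. The count of 66 came without normal 56. The median difference of all miRNAs was -0.04 in the main setting, -0.39 without miR-184 and 0.44 scaled to the listed miRNA reads.

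For miR-322-3p the difference was 0.64 without miR-184 and 0.88 to 1.16 with 1 library left out; the cause was not tested. miR-503-3p passed the threshold with scaling by the median of ratios (0.70), scaled to the listed miRNA reads (1.22), with edgeR (0.75) and with DESeq2 (0.74), and its difference was 0.54 to 0.96 with 1 library left out. The seed relative miR-497-5p, never past the threshold in the main setting, turned sign: in allografts against isografts it was 0.037 with the median of ratios, 0.22 scaled to the listed miRNA reads and 0.09, 0.16 and 0.22 without allograft 34, isograft 34 and isograft 56 (range with 1 library left out -0.95 to 0.22). In grafts against normal corneas it was 0.32 scaled to the listed miRNA reads and 0.21 without isograft 12 (range -0.40 to 0.21).

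For libraries with the same title number, the 9 correlations of their deviations from the group means ran from -0.51 to 0.56, and 2 were over 0.1. For libraries with different numbers they ran from -0.72 to 0.60. With 3 libraries in a group these values cannot show whether the numbers pair the libraries. With the number as a replicate block 111 miRNAs were called for grafts against normal corneas, and no member's call changed. Depth limits miR-503-5p most: its lowest value, in normal 34, rests on 41 reads.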
